A study of Mus musculus with 22 samples.

Results

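The imprinted genes examined here are 38 mouse genes known to be transcribed mainly from the copy inherited from 1 parent. They were taken by symbol from count tables that each list 52535 gene symbols, and all 38 symbols were found. The maternal copy is listed as the expressed one for 17 of them and the paternal copy for 20, while Gnas is listed as differing between its isoforms. These assignments are background knowledge and were not tested in these cells. The counts do not separate the parental copies, so every value below is the sum over both. RNA came from E14, an established line of mouse embryonic stem cells, kept in medium with LIF and inhibitors of MEK and GSK3 and then treated for 1 day with 2 µM retinoic acid after LIF and both inhibitors had been withdrawn. The 12 libraries are 3 of WT and 3 each of E1-KO, E2-KO and D-KO; E1 and E2 are enhancers studied for their action on the HoxB genes, and all 4 genotypes received retinoic acid. D-KO is not spelled out in the labels and is read here as the loss of both elements. No library without retinoic acid was analysed here. The libraries of a genotype are called biological replicates without a statement on separate cultures or clones, so p-values measure only the spread between these samples.

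Genomic imprinting marks a small set of genes with DNA methylation in the egg or the sperm, and the mark is kept after fertilisation so that only the maternal or only the paternal copy is read. Most imprinted genes lie in clusters governed by an imprinting control region, often together with a non-coding RNA such as H19, Kcnq1ot1 or Nespas. Many of the maternally expressed genes restrain growth and many of the paternally expressed ones promote it, and the marks can be lost in cultured embryonic stem cells.

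Libraries held 9101547 to 13007735 counts on genes. The counts do not cover the deleted elements, and the nearest check of the genotypes is the HoxB cluster, where 9 of 10 tested genes were lower than in WT in each of E1-KO, E2-KO and D-KO. Hoxb1 lay at 17.1 to 31.3 CPM (counts per 1000000 counts on genes, after TMM scaling of library sizes) in WT and at 0.186 to 1.15 CPM in the KO libraries. WT libraries lay farther apart than the others: the common dispersion was 0.101 among WT, 0.00280 for E1-KO, 0.00443 for E2-KO and 0.00278 for D-KO. Mitochondrial transcripts took 1.94% to 5.88% of counts in WT and 2.53% to 2.69% in D-KO. In the single deletions, E1-KO and E2-KO, they took 1.36% to 1.81%. Expression relative to the mean library followed the GC content of genes differently between libraries. The Spearman correlation across genes was -0.66 in WT replicate 1, 0.19 in replicate 2 and -0.48 in replicate 3. D-KO libraries lay between -0.12 and -0.03, and all libraries of the single deletions between 0.30 and 0.52. Both differences go with genotype, so comparisons of D-KO with the single deletions are not free of them. Offsets for GC content were among the alternatives, while the part of the mitochondrial share was not tested. The model shares 1 spread among genotypes. For the spread between these libraries, standard errors are therefore likely understated where WT is compared and overstated between KO genotypes. The spread between separate cultures or clones is not known, and standard errors may be understated for it in every comparison. Stem cell markers summed to 2786 to 5145 CPM over 10 genes in WT and to 5431 to 7120 CPM in the KO libraries. Fibroblast markers (8 genes) summed to 3.80 to 8.14 CPM, with Lum at 0 and Col1a2, Col3a1, Postn, Dcn and Twist2 under 1 CPM.

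Of the 38 genes, 32 passed the filter on low counts and were tested. The other 6 were Airn, Meg3, Rian and Asb4, with 33, 45, 27 and 54 counts over the 12 libraries, and Dlk1 and Rtl1, with 0 counts. A count of 0 allows up to 0.0922 to 0.104 CPM over the 3 libraries of a genotype. The maternally expressed RNAs Meg3 and Rian and the paternally expressed Dlk1 and Rtl1 belong to 1 cluster on chromosome 12. The microRNA host Mirg of that cluster was tested and lay at 1.21 to 2.93 CPM in every library. Dio3, a thyroid hormone deiodinase of the cluster, is not among the 38 and was looked up after its values were seen. It rose against WT by 0.98 ± 0.34 in E1-KO and 1.88 ± 0.33 in E2-KO. Its level was low, 0.949 to 2.96 CPM in WT, and D-KO, at 2.14 to 2.82 CPM, lay within the WT range. E1-KO, at 2.72 to 4.64 CPM, overlapped that range, and E2-KO, at 6.45 to 8.02 CPM, lay above it. Per kilobase of exon, the highest WT levels among the 38 were those of Peg10 (96.2 CPM per kb), Slc38a4 (90.9), Cdkn1c (55.7), Grb10 (47.5) and Mest (47.1). Summed over the 38 genes, TMM-normalised levels came to 2479 to 2908 CPM in WT, 2427 to 2461 CPM in D-KO and 2143 to 2251 CPM in the single deletions. Without Grb10 the sums were 2071 to 2464 CPM in WT and 2111 to 2438 CPM in the KO libraries, which overlap.

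Grb10, an adaptor protein that restrains insulin and growth factor signalling, carried the largest loss among the imprinted genes. It lies on chromosome 11 at chr11:11930508-12038683 on the minus strand (GRCm38), 84.2 Mb from Hoxb13, the nearest HoxB gene. WT replicates 1, 2 and 3 stood at 444, 407 and 444 CPM. In E1-KO the libraries held 33.4, 31.9 and 31.7 CPM, in E2-KO 49.1, 51.4 and 55.7 CPM, and in D-KO 22.9, 24.8 and 26.9 CPM. No library of any genotype overlapped another genotype's, and WT was as even as the KO groups for this gene. The log2 fold change against WT was -3.74 ± 0.10 (SE) for E1-KO, -3.05 ± 0.10 for E2-KO and -4.12 ± 0.10 for D-KO, with adjusted p = 7.54e-11, 3.97e-10 and 2.66e-11. These correspond to levels 13.3-fold lower in E1-KO and 8.29-fold lower in E2-KO. Ranked by p among the 16765 genes tested, Grb10 came first in E1-KO and in D-KO and at rank 2 in E2-KO. The KO genotypes also differed from each other: D-KO was lower than E2-KO, at -1.07 ± 0.10 (adjusted p = 0.000134), and lower than E1-KO, at -0.38 ± 0.10 (adjusted p = 0.0247), and E2-KO was higher than E1-KO by 0.69 ± 0.10 (adjusted p = 0.00604). The D-KO against E1-KO call was lost without any E1-KO library or without D-KO replicate 1 or 2 (-0.39 to -0.32), and with no filter on low counts. The E2-KO against E1-KO call was lost without any E1-KO library or without E2-KO replicate 3 (0.64 to 0.71). Ddc, DOPA decarboxylase, an imprinted neighbour 32.4 kb away that is not among the 38, held 68.7 ± 4.56 CPM (SD, n = 3) in WT. Its log2 fold change was -2.17 ± 0.14 for E1-KO, -2.34 ± 0.14 for E2-KO and -1.72 ± 0.14 for D-KO. Cobl, an imprinted gene on the other side of Grb10 and also not among the 38, was not lower in its means. These were 288 CPM in WT and 428, 321 and 301 CPM in E1-KO, E2-KO and D-KO. Every E1-KO library of Cobl (423 to 434.5 CPM) lay above every WT library (225 to 362 CPM). Primitive endoderm markers, from a list of 12, summed to 474 to 515 CPM in WT, and to 291 to 303 CPM in D-KO, 285 to 289 CPM in E2-KO and 183 to 195 CPM in E1-KO. Of the 12 markers, E1-KO had 10 below WT, E2-KO 10 and D-KO 9 (called), and 1 rose in each. Over all genes tested, 18.5%, 18.6% and 12.2% were called lower and 15.7%, 16.7% and 10.6% higher in these genotypes. In bulk RNA, fewer cells of a type and less RNA per cell cannot be told apart, and the part of these markers in the fall of Grb10 was not tested.

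**Figure D1:**
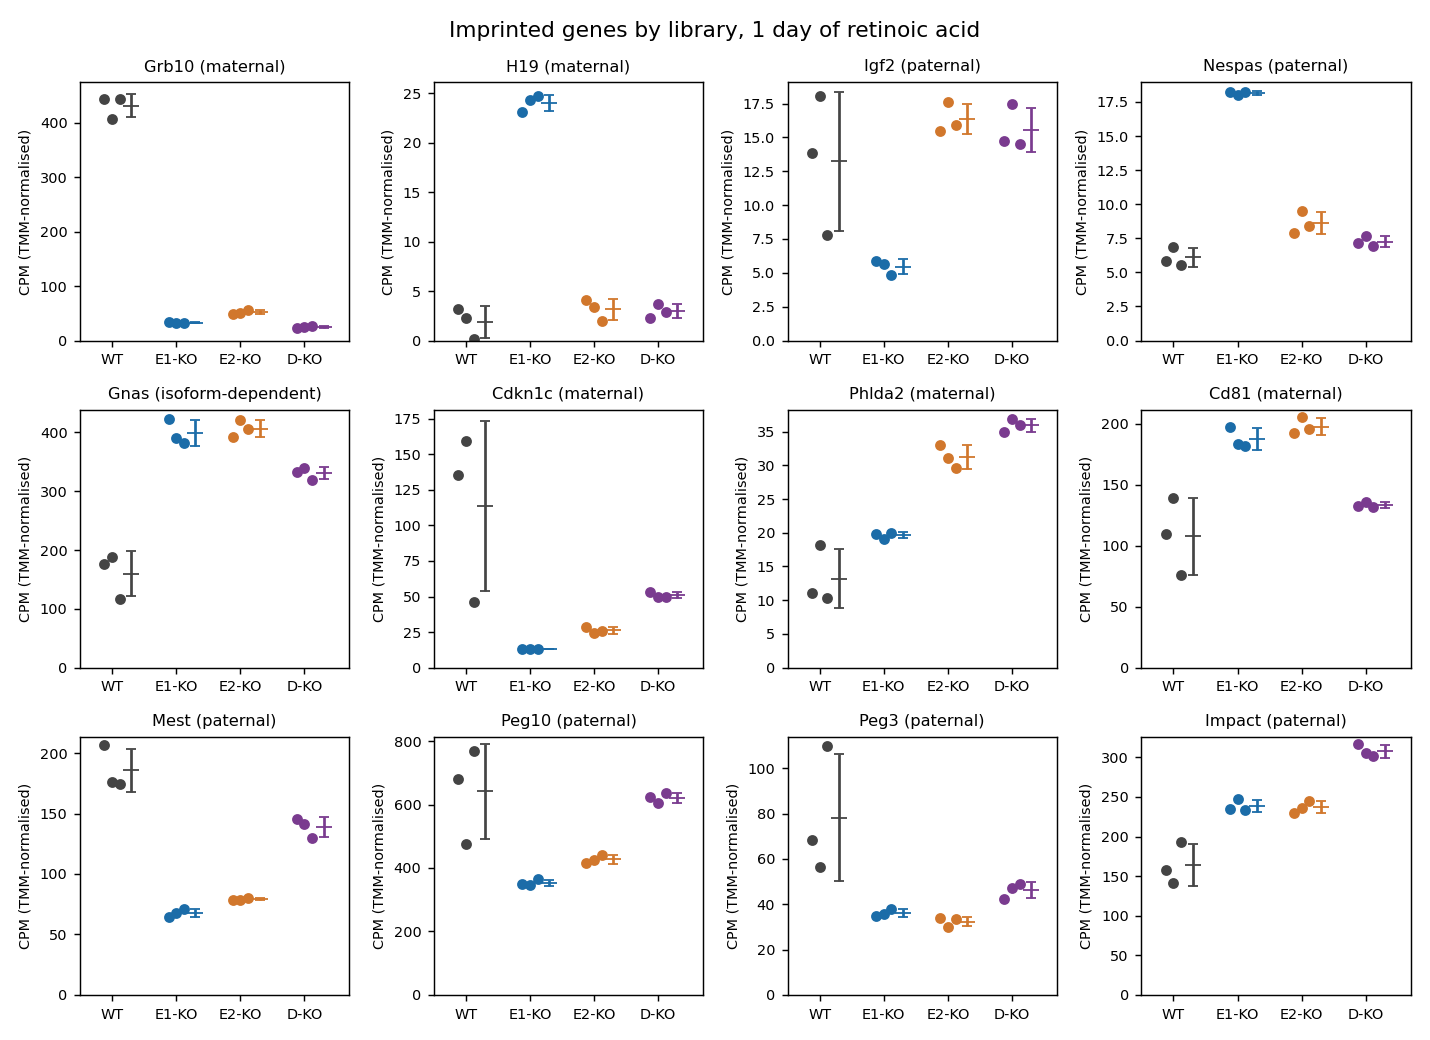
TMM-normalised CPM (linear vertical axes starting at 0) of 12 imprinted genes in the 3 libraries of each genotype, with the mean and SD beside the points. WT libraries of Grb10 sit at 407 to 444 CPM, far above all KO libraries, and for H19 and Nespas the 3 E1-KO libraries lie above all others.

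Promoter windows of 300 bases, from 250 before to 50 after a start site, were available from RefSeq (GRCm38.p6) for 31 of the 38 genes. They were searched for TGCCGC or GCGGCA, the 2 strands of the hexamer that the zinc-finger protein ZFP57 is known to bind when methylated at imprinting control regions. At least 1 window of 10 of the 31 genes (32.3%) held it: Grb10, Mest, Plagl1, Zim1, Mcts2, Igf2, Nnat, Snrpn, Commd1 and Meg3. Over all genes of the table the share was 13.1%, and by window it was 22.4% of 49 windows against 11.6% of 32851. The windows of the imprinted genes also held more CpG, with a median of 13 against 7 over all windows. A match describes the letters in a window and shows neither binding nor methylation, which were not measured. Of genes with a window, 4 of 5 called lower than WT in all 3 KO genotypes held the hexamer, and 1 of 3 called higher. Peg3, Gnas and Phlda2 were so called without a match, and Snrpn and Commd1 held it but were called in no comparison. A link between hexamer and change was not tested. Those called in all 3 with the hexamer were Grb10, Mest, Mcts2, Plagl1 and Zim1. The windows of the 3 of these with the highest levels in WT are printed, with the hexamer in capitals. They are Grb10 at chr11:12037371-12037670 (minus strand), Mest at chr6:30737800-30738099 (plus strand) and Mcts2 at chr2:152686898-152687197 (plus strand).
Grb10: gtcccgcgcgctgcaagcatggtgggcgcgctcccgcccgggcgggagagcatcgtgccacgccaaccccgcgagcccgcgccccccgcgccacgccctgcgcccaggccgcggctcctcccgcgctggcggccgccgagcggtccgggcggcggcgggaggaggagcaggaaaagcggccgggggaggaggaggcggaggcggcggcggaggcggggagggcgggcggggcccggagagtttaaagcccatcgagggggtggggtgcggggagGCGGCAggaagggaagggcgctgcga
Mest: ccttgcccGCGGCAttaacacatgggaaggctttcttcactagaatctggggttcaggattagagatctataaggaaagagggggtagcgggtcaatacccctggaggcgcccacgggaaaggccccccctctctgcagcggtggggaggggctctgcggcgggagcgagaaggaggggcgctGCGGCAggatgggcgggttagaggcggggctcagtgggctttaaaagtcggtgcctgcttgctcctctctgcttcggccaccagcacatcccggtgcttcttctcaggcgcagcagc
Mcts2: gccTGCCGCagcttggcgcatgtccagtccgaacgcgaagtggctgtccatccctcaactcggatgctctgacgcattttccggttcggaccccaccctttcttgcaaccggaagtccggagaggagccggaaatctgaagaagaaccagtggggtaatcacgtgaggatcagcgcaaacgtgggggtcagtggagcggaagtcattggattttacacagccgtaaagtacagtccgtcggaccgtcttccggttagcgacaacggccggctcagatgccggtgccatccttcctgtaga
In Grb10 the match begins 24 bases after the start site, in Mest there are 2 matches, and in Mcts2 the match begins 247 bases before it. The Grb10 window held 45 CpG, that of Mest 17 and that of Mcts2 25.

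Against WT, 17 of the 32 tested genes were called in E1-KO (7 higher, 10 lower, adjusted p below 0.05), or 53.1%, where 34.2% of all 16765 genes were called. In E2-KO 14 were called (6 higher, 8 lower), or 43.8%, against 35.3% of all genes. In D-KO 12 were called (5 higher, 7 lower), or 37.5%, against 22.8% of all genes. By direction, 15.7% of all genes were called higher and 18.5% lower for E1-KO, 16.7% and 18.6% for E2-KO, and 10.6% and 12.2% for D-KO. The median log2 fold change of the 32 genes was -0.04 for E1-KO, -0.19 for E2-KO and -0.06 for D-KO, beside -0.01, 0.00 and -0.02 over all genes. The median absolute change was 0.66, 0.61 and 0.43 beside 0.41, 0.41 and 0.33 over all genes; with 1 list chosen by hand, no test of the list was made. Maternally expressed genes (14 tested) gave 3 higher and 3 lower for E1-KO, 2 and 3 for E2-KO, and 1 and 4 for D-KO. Paternally expressed genes (17 tested) gave 3 higher and 7 lower for E1-KO, 3 and 5 for E2-KO, and 3 and 3 for D-KO. Both parental classes thus held rises and falls in each KO genotype, and a difference between the classes was not tested. The 3 comparisons share the WT libraries. With library totals as the only scaling, the median of all genes moved from -0.008 to 0.098 in E1-KO against WT and 57.1% rather than 45.9% of all calls were higher; the 32 genes then gave 7 higher and 8 lower.

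**Figure D2:**
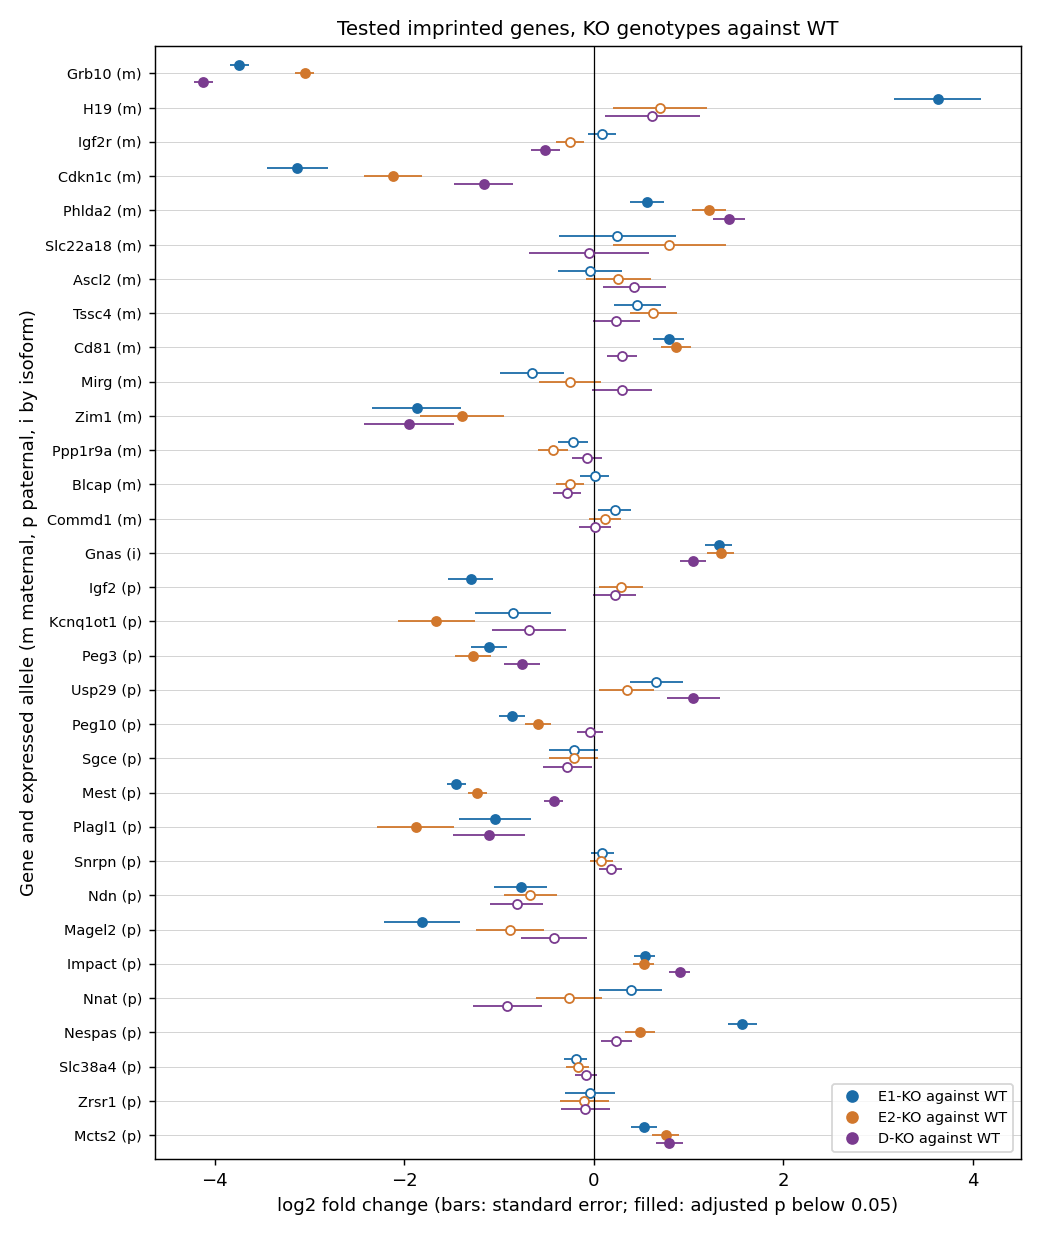
Log2 fold change against WT (horizontal axis, bars are the standard error) of the 32 tested imprinted genes in E1-KO, E2-KO and D-KO, with filled points for adjusted p below 0.05. Grb10 and Cdkn1c reach the lowest values and H19 in E1-KO the highest, 3.63, and both maternally and paternally expressed genes lie on each side of 0.

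At the H19/Igf2 cluster on chromosome 7, E1-KO differed from the 3 other genotypes. H19, a maternally expressed non-coding RNA, lies at chr7:142575529-142578143, and Igf2, the paternally expressed growth factor, at chr7:142650766-142666816. H19 stood at 23.1, 24.3 and 24.7 CPM in the E1-KO libraries, and at 3.18, 2.29 and 0.119 CPM in WT replicates 1, 2 and 3. It held 4.07, 3.44 and 1.99 CPM in E2-KO and 2.32, 3.74 and 2.92 CPM in D-KO. All E1-KO libraries lay above all others, while WT, E2-KO and D-KO overlapped. The rise in E1-KO against WT was 3.63 ± 0.46 (adjusted p = 4.91e-05), and against E1-KO the change was -2.93 ± 0.42 in E2-KO (adjusted p = 0.00604) and -3.01 ± 0.43 in D-KO (adjusted p = 0.000599). Without E2-KO replicate 3 the E2-KO against E1-KO call was lost (-2.68). E2-KO and D-KO against WT gave 0.70 ± 0.50 and 0.62 ± 0.50 and were not called. Igf2 showed the opposite order: 5.87, 5.66 and 4.83 CPM in E1-KO, beside 13.9, 18.1 and 7.83 CPM in WT, 15.5, 17.6 and 15.9 CPM in E2-KO and 14.7, 17.5 and 14.5 CPM in D-KO. Igf2 fell by 1.30 ± 0.24 in E1-KO against WT (adjusted p = 0.00122), and was higher than in E1-KO by 1.58 ± 0.24 in E2-KO and by 1.51 ± 0.24 in D-KO. The E2-KO against E1-KO call for Igf2 was lost without any E1-KO library or without E2-KO replicate 2 (1.5 to 1.64). In the annotation 62.8% of Igf2's exon bases are shared with a same-strand read-through gene, so its counts are uncertain to that extent. Igf2r, the maternally expressed receptor that clears the Igf2 protein, is on chromosome 17. Its libraries held 133, 133 and 213 CPM in WT, 172, 165 and 173 in the E1-KO libraries, 130.2, 134 and 138 in those of E2-KO and 111, 113 and 112 in those of D-KO. D-KO lay below every library of the other genotypes, at -0.51 ± 0.15 against WT (adjusted p = 0.0259) and -0.60 ± 0.15 against E1-KO (adjusted p = 0.0166). The value against WT was -0.25 without WT replicate 3, and the call was lost without any D-KO library (-0.51 to -0.50) and in the fit of the 6 WT and D-KO libraries. Against E1-KO the call was lost without E1-KO replicate 1 or 3 or any D-KO library (-0.60 to -0.59).

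A like order, high in E1-KO, was seen for Nespas at the Gnas cluster on chromosome 2. Nespas is a paternally expressed non-coding RNA antisense to Gnas, which encodes the stimulatory G protein alpha subunit. It held 18.3, 18.0 and 18.2 CPM in E1-KO, 5.85, 6.88 and 5.57 CPM in WT, 7.92, 9.47 and 8.43 CPM in E2-KO, and 7.15, 7.67 and 6.90 CPM in D-KO. E1-KO stood apart from every other library, 1.57 ± 0.15 above WT (adjusted p = 5.83e-06), with D-KO at -1.33 ± 0.15 and E2-KO at -1.08 ± 0.15 against it (adjusted p = 0.000126 and 0.00534). The smaller rise in E2-KO against WT, 0.49 ± 0.16 (adjusted p = 0.0266), was lost in 11 of 22 alternatives, among them without WT replicate 1 or 3 or E2-KO replicate 2 or 3 (0.42 to 0.51). Gnas rose in all KO genotypes. It held 176, 188 and 116 CPM in WT, 424, 391 and 382 in the E1-KO libraries, 393, 421 and 406 in those of E2-KO and 334, 339.9 and 319 in those of D-KO, with WT below all KO libraries. The changes were 1.32 ± 0.14, 1.34 ± 0.14 and 1.05 ± 0.14 (adjusted p = 1.59e-05, 1.58e-05 and 0.000188). Exons of other genes on the opposite strand cover 22.0% of Gnas exon bases and 38.5% of those of Nespas, and the strand setting of the counting is not given. Gm20721, which overlaps Gnas on that strand, changed by 1.21, 1.34 and 1.01, so the reads of these genes may not be told apart.

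The Kcnq1ot1 cluster on chromosome 7 held genes that moved in opposite directions. Cdkn1c encodes the cell cycle inhibitor p57 and is maternally expressed. It stood at 135, 159.6 and 45.9 CPM in WT, 12.9, 13.2 and 12.9 CPM in the E1-KO libraries, 28.6, 24.3 and 25.7 CPM in those of E2-KO and 53.2, 49.7 and 49.6 CPM in those of D-KO. WT replicate 3 lay below D-KO and above E1-KO and E2-KO, so only E1-KO and E2-KO were separate from WT. The gene fell by 3.13 ± 0.32 for E1-KO, 2.12 ± 0.31 for E2-KO and 1.16 ± 0.31 for D-KO (adjusted p = 2.43e-05, 0.000369 and 0.0166). The D-KO call was lost without WT replicate 2 or D-KO replicate 2 or 3 (-1.14 to -0.84) and in the fit of the 6 WT and D-KO libraries. D-KO was above E1-KO by 1.97 ± 0.33 (adjusted p = 0.00222). Gm44732, a transcript overlapping 30.7% of Cdkn1c exon bases on the opposite strand, changed by -2.59, -1.95 and -1.03 against WT, the last not called. Phlda2, a maternally expressed restrainer of placental growth, went the other way, with 11.1, 18.2 and 10.3 CPM in WT, 19.9, 19.1 and 19.9 in the E1-KO libraries, 33.1, 31.0 and 29.5 in those of E2-KO and 35.0, 36.9 and 36.0 in those of D-KO. All KO libraries lay above WT. The rises were 0.56 ± 0.18 in E1-KO (adjusted p = 0.0263), 1.22 ± 0.18 in E2-KO (adjusted p = 0.00017) and 1.43 ± 0.17 in D-KO (adjusted p = 7.11e-05), and D-KO exceeded E1-KO by 0.87 ± 0.17. The E1-KO call was lost in 9 of 22 alternatives, including without WT replicate 1 or 3 or any E1-KO library (0.41 to 0.58), and was 0.20 with offsets for GC content and length. Without WT replicate 2 it was 0.87. Cd81, a tetraspanin, held 109, 139 and 75.8 CPM in WT, 198, 184 and 182 in the E1-KO libraries, 192, 205 and 196 in those of E2-KO and 133, 136 and 132 in those of D-KO. It rose by 0.79 ± 0.16 in E1-KO and 0.87 ± 0.16 in E2-KO (adjusted p = 0.00191 and 0.00107), and D-KO against WT (0.30 ± 0.16) was not called. Its D-KO against E1-KO value, -0.49 ± 0.16 (adjusted p = 0.049), was lost without any 1 of the 9 KO libraries (-0.52 to -0.45). Kcnq1ot1, the paternally expressed antisense RNA of the cluster, held 22.5, 11.7 and 55 CPM in WT and 10.2, 7.60 and 10.0 CPM in E2-KO. It also held 18.8, 15.3 and 14.7 CPM in E1-KO and 16.3, 18.2 and 20.7 CPM in D-KO. Only E2-KO was called, at -1.66 ± 0.41 (adjusted p = 0.00864); this was -0.87 without WT replicate 3 and 0.00 with offsets for GC content and length, so the direction was not kept. Kcnq1, whose gene body it crosses, stayed under 1 CPM in all libraries. Slc22a18, Ascl2 and Tssc4, the other members of the cluster, were called in no comparison.

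Peg3, Zim1 and Usp29 form a cluster on chromosome 7. Peg3, a paternally expressed zinc-finger protein, fell in every KO genotype. Its libraries held 68.3, 56.5 and 110.0 CPM in WT, 35.0, 35.6 and 38.1 in the E1-KO libraries, 33.8, 29.9 and 33.3 in those of E2-KO and 42.4, 47.4 and 49.0 in those of D-KO. WT lay above all KO libraries, and the changes were -1.11 ± 0.19, -1.27 ± 0.19 and -0.76 ± 0.19 (adjusted p = 0.000573, 0.000228 and 0.01). The D-KO change was -0.44 without WT replicate 3, and the call was lost without D-KO replicate 1 (-0.69) and in the fit of the 6 WT and D-KO libraries. Zim1, a maternally expressed zinc-finger gene, was low in every library. It held 2.46, 1.78 and 3.56 CPM in WT, 0.284, 1.11 and 0.704 in the E1-KO libraries, 0.749, 0.937 and 1.23 in those of E2-KO and 0.504, 0.808 and 0.681 in those of D-KO. Its falls, -1.87 ± 0.47, -1.39 ± 0.44 and -1.95 ± 0.48 (adjusted p = 0.00671, 0.0255 and 0.00822), rest on 78 counts in WT and 20 to 29 per KO genotype. The E2-KO call was lost in 8 of 22 alternatives, including without WT replicate 3 or E2-KO replicate 1 or 2 (-1.36 to -1.11), and all 3 calls were lost without WT replicates 1 and 3 together, an alternative chosen after seeing the data. Usp29, a paternally expressed ubiquitin peptidase, held 3.39, 2.89 and 1.90 CPM in WT and 3.00, 3.33 and 4.17 CPM in E2-KO. Its libraries held 4.35, 4.18 and 4.53 CPM in E1-KO and 4.33, 7.77 and 4.96 CPM in D-KO. All E1-KO libraries lay above WT, but their change of 0.66 ± 0.28 was not called (adjusted p = 0.0835). D-KO against E1-KO, 0.39 ± 0.27, was not called either. The only call was a rise in D-KO against WT. That rise of 1.05 ± 0.28 (adjusted p = 0.015) was lost without D-KO replicate 2 (0.76), in which the gene was highest, in the fit of 6 libraries and in limma with library weights. Zim3, which overlaps 14.3% of Usp29 exon bases on the opposite strand, rose by 1.02, 0.78 and 0.88 in the KO genotypes.

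Mest, a paternally expressed hydrolase-like protein, and Peg10, a paternally expressed gene derived from a retrotransposon and needed in the placenta, are both on chromosome 6. For both, D-KO lay closer to WT than the single deletions did. Mest held 207, 176 and 175 CPM in WT, 64.5, 68.1 and 70.6 in the E1-KO libraries, 78.9, 78.4 and 80.5 in those of E2-KO and 145, 141 and 129.7 in those of D-KO. The groups did not overlap. Against WT the changes were -1.45 ± 0.10, -1.23 ± 0.10 and -0.42 ± 0.10 (adjusted p = 3.29e-07, 1.87e-06 and 0.00746), and D-KO exceeded E1-KO by 1.03 ± 0.10 (adjusted p = 3.9e-05) and E2-KO by 0.81 ± 0.10 (adjusted p = 0.00081). The D-KO against WT call was lost without D-KO replicate 3 (-0.37) and in the fit of the 6 WT and D-KO libraries. Peg10 held 679.5, 476 and 769 CPM in WT, 350.0, 347 and 364 in the E1-KO libraries, 414, 425 and 442 in those of E2-KO and 625, 604 and 636 in those of D-KO. E1-KO and E2-KO lay below every WT and D-KO library, and D-KO lay within the WT range. The changes were -0.86 ± 0.14 in E1-KO and -0.59 ± 0.14 in E2-KO (adjusted p = 0.000428 and 0.0058), beside -0.04 ± 0.14 in D-KO, and the E2-KO call was lost in the fit of the 6 WT and E2-KO libraries. D-KO exceeded E1-KO by 0.81 ± 0.14 (adjusted p = 0.00189) and E2-KO by 0.54 ± 0.14 (adjusted p = 0.0419), the second lost without any 1 of the 9 KO libraries (0.52 to 0.57). Copg2, which overlaps 23.1% of Mest exon bases on the opposite strand, was not called in any comparison. The Peg10 neighbours Sgce and Ppp1r9a were called in no comparison.

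Impact, an inhibitor of the amino acid sensor Gcn2, and Mcts2, a retrogene copy of Mcts1 inside H13, are both paternally expressed and both rose. Impact held 158, 141 and 194 CPM in WT, 235, 247 and 234 in the E1-KO libraries, 230.0, 236 and 246 in those of E2-KO and 317, 305 and 301 in those of D-KO. WT lay below all KO libraries, and D-KO above all others. The rises were 0.54 ± 0.11, 0.53 ± 0.11 and 0.91 ± 0.11 (adjusted p = 0.0025, 0.0029 and 8.06e-05), and the first and the second call were each lost in the fit of 6 libraries. D-KO exceeded E1-KO by 0.37 ± 0.11 (adjusted p = 0.0407), a call lost in 13 of 22 alternatives, among them without any 1 of the 9 KO libraries (0.35 to 0.39). Mcts2 held 16.5, 12.7 and 14.0 CPM in WT, 18.5, 21.4 and 22.3 in the E1-KO libraries, 22.5, 25.7 and 24.9 in those of E2-KO and 22.8, 25.9 and 26.4 in those of D-KO. All KO libraries were above WT, by 0.53 ± 0.14, 0.76 ± 0.14 and 0.80 ± 0.14 (adjusted p = 0.0112, 0.00114 and 0.00113), the first lost without E1-KO replicate 3 (0.47), in the fit of 6 libraries and in limma with library weights. Its host H13 fell over the same libraries, by 0.84, 0.90 and 0.82, from 40.1 ± 2.89 CPM in WT to 21.5 to 22.7 CPM in the KO genotypes. The parent gene Mcts1 changed by -0.57 ± 0.18 in E1-KO (adjusted p = 0.024), and its reads and those of the copy could be split by the counting.

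Plagl1, Magel2, Ndn and Nnat were low, and their calls rest on few counts. Plagl1, a paternally expressed zinc-finger factor, held 3.80, 4.66 and 4.15 CPM in WT, 2.08, 2.14 and 1.91 in the E1-KO libraries, 1.39, 0.521 and 1.52 in those of E2-KO and 3.22, 1.51 and 1.17 in those of D-KO. WT was above all KO libraries. The E2-KO fall of 1.88 ± 0.41 (adjusted p = 0.00313) was kept in all 22 alternatives. Those in E1-KO (-1.04 ± 0.38, adjusted p = 0.0441) and D-KO (-1.10 ± 0.38, adjusted p = 0.0494) were lost in 14 and 17. Leaving out any library except E2-KO replicate 2 and D-KO replicates 1 and 3 ended the E1-KO call (-1.11 to -0.96), and leaving out any except E2-KO replicate 2 and D-KO replicate 1 ended the D-KO call (-1.18 to -0.83). Magel2, a paternally expressed MAGE-family gene, held 0.568, 0.557 and 0.704 CPM in E1-KO, below 2.16, 2.22 and 2.02 in WT, 1.28, 1.46 and 0.757 in E2-KO and 1.71, 2.02 and 1.07 in D-KO. It fell by 1.81 ± 0.40 in E1-KO against WT (adjusted p = 0.00311). D-KO exceeded E1-KO by 1.39 ± 0.41 (adjusted p = 0.0315), a call lost without any E1-KO library or without D-KO replicate 1 or 2 (1.19 to 1.51), in DESeq2 and with no filter on low counts. Nnat, paternally expressed neuronatin, held 1.51, 2.32 and 3.01 CPM in D-KO and 6.72, 4.92 and 5.23 CPM in E1-KO. WT (2.36, 4.00 and 6.64 CPM) and E2-KO (2.78, 4.37 and 3.6 CPM) overlapped D-KO, and WT but not E2-KO overlapped E1-KO. The D-KO against E1-KO difference was -1.30 ± 0.36 (adjusted p = 0.0248) and was lost without any E1-KO library or without D-KO replicate 1 or 2 (-1.39 to -1.07). Ndn, paternally expressed necdin, was called in E1-KO at -0.77 ± 0.28 (adjusted p = 0.0446), but its WT libraries, 6.17 to 12.7 CPM, overlapped those of E1-KO, 4.53 to 6.91 CPM. That call was lost in 14 of 22 alternatives, including without any library except WT replicate 3, E2-KO replicate 2 and D-KO replicate 1 (-0.92 to -0.53).

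Between KO genotypes, D-KO against E1-KO gave 13 calls among the 32 (7 higher, 6 lower), or 40.6%, beside 15.9% of all genes (8.43% higher, 7.52% lower). D-KO against E2-KO gave 3 (Peg10 and Mest higher, Grb10 lower), or 9.38%, beside 4.48% of all genes (1.84% higher, 2.64% lower). E2-KO against E1-KO gave 4 (Grb10 and Igf2 higher, H19 and Nespas lower), or 12.5%, beside 0.596% of all genes (0.274% higher, 0.322% lower). These comparisons do not use WT levels, but the WT libraries add to the shared spread. D-KO also differed from both single deletions in GC trend and mitochondrial share, as given above. The median absolute log2 fold change of the 32 genes was 0.36, 0.37 and 0.29 in these comparisons, beside 0.30, 0.24 and 0.17 over all genes. With library totals as the only scaling, 36.0% rather than 52.9% of all calls in D-KO against E1-KO were higher, and 35.0% rather than 46.0% in E2-KO against E1-KO; the calls among the 32 were then 6 higher and 6 lower, and 2 and 2. Without E1-KO replicate 1, 2 or 3 or D-KO replicate 1 or 2, D-KO against E1-KO gave 7 or 8 calls. Without any E1-KO library or E2-KO replicate 3, E2-KO against E1-KO gave 2, and without WT replicate 3 it gave 7. For D-KO against E2-KO, 8 were called without WT replicate 2 and 12 without WT replicate 3.

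**Figure D3:**
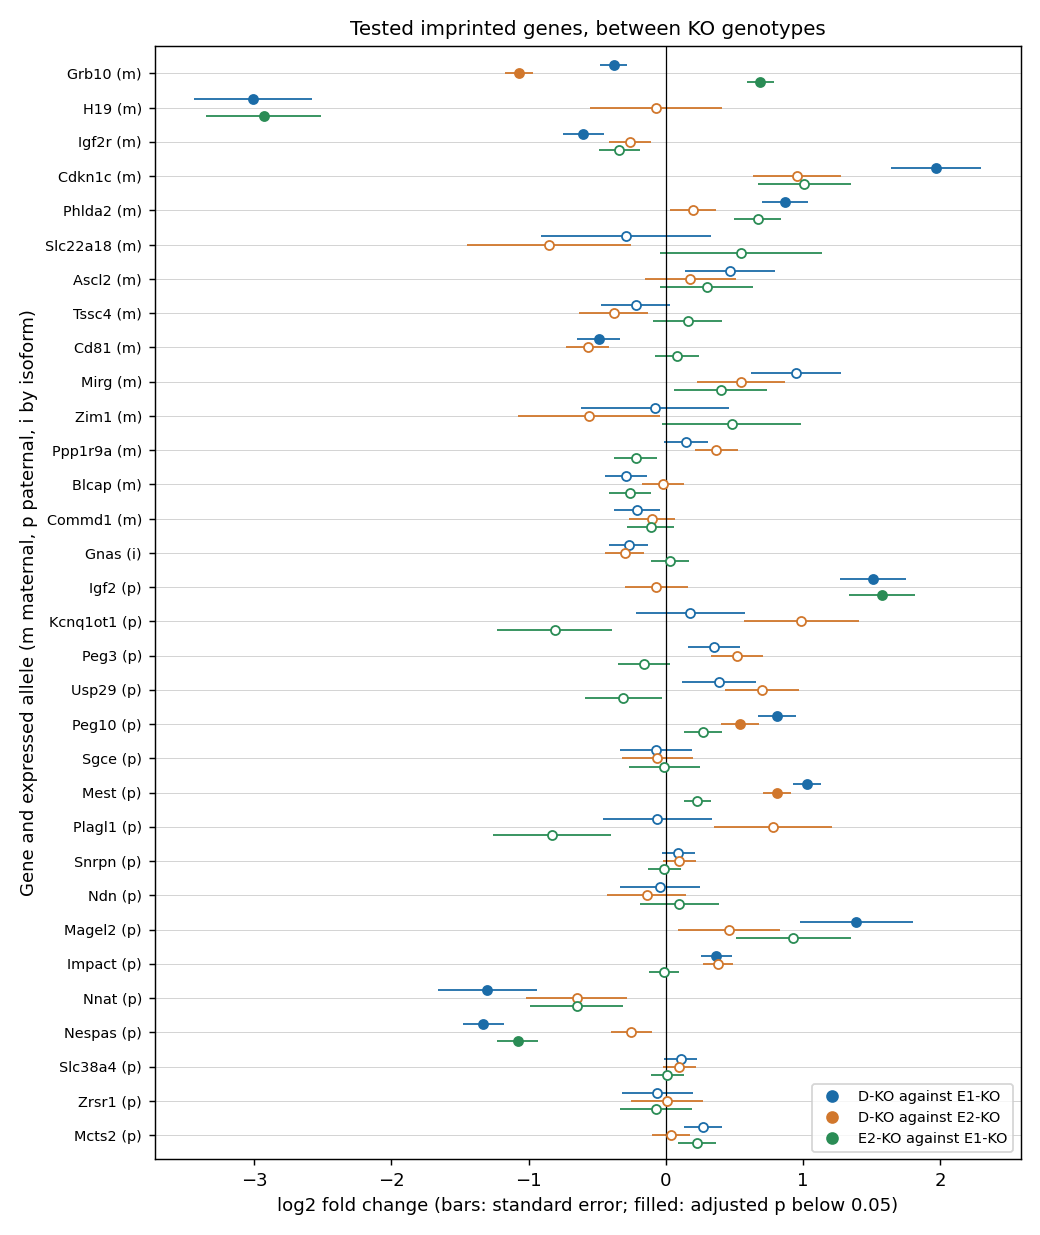
Log2 fold change between KO genotypes (horizontal axis, bars are the standard error) of the 32 tested imprinted genes, with filled points for adjusted p below 0.05. H19 at -3.01 and -2.93 and Nespas at -1.33 and -1.08 lie lowest against E1-KO, and Igf2 at 1.51 and 1.58 is among the highest.

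The spread between libraries differed between the genotypes for most imprinted genes. The coefficient of variation (CV, the SD over the mean of 3 libraries) of the 32 tested genes had a median of 28.8% in WT and 7.59% in the KO genotypes, beside 26.1% and 8.67% over all genes. It was larger in WT for 29 of the 32 genes. The exceptions were Grb10 (4.89% in WT), Magel2 (4.91%) and Plagl1 (10.3%). H19 had the widest WT spread, 84.5%, with 31, 31 and 1 counts in the 3 libraries. The remaining 11 tested genes were called in no comparison: Slc22a18, Ascl2, Tssc4, Mirg, Sgce, Ppp1r9a, Snrpn, Blcap, Slc38a4, Zrsr1 and Commd1. Among these the amino acid transporter Slc38a4 had the highest level, 387 ± 72.1 CPM in WT and 340.0 to 367 CPM as KO means. It changed by -0.19 ± 0.12, -0.17 ± 0.12 and -0.08 ± 0.12 against WT. Snrpn, which encodes a splicing protein, changed by 0.09 ± 0.12, 0.08 ± 0.12 and 0.18 ± 0.12.

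**Figure D4:**
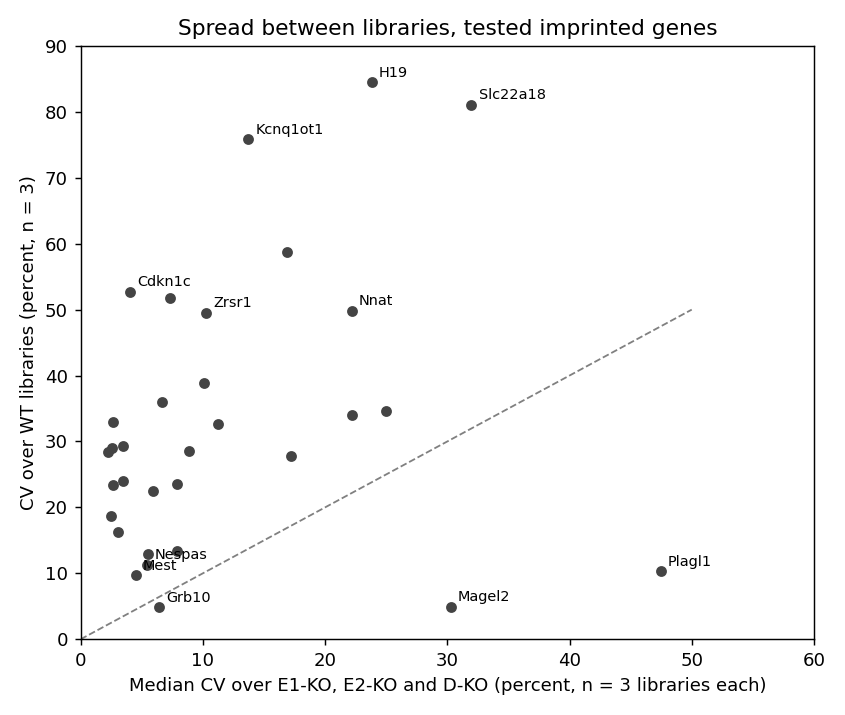
Coefficient of variation over the 3 WT libraries (vertical axis, percent) against the median over the KO genotypes (horizontal axis, percent) for the 32 tested imprinted genes, with the line of equal spread dashed. Only Grb10, Magel2 and Plagl1 lie below the line.

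Genes that write, read or erase the imprints were taken from a list of 22, of which 21 were tested. Against WT, 5 rose and 6 fell in E1-KO, 1 rose and 9 fell in E2-KO, and 7 rose and 4 fell in D-KO, where 34.2%, 35.3% and 22.8% of all genes were called. Dnmt3b, a de novo DNA methyltransferase, rose from 150.8 ± 15.7 CPM in WT to 203 ± 4.08 for E1-KO, 219 ± 2.69 for E2-KO and 300.2 ± 6.80 for D-KO. The changes were 0.43, 0.54 and 0.99, each ± 0.10. Tet2, an enzyme that oxidises methylcytosine, fell by 0.73 ± 0.14 in E2-KO and 0.90 ± 0.14 in D-KO, and was -0.18 ± 0.14 in E1-KO. Kdm1b, a histone demethylase that acts in the egg when imprints are set, fell by 0.99 ± 0.16 in E1-KO and by 0.75 ± 0.16 in E2-KO, while D-KO stood at -0.25 ± 0.16. From a list of 50 other imprinted genes, 33 were tested and 5 had 0 counts. In E1-KO 10 rose and 8 fell, in E2-KO 10 and 8, and in D-KO 8 and 5, beside the same shares of all genes. Smoc1, a secreted calcium-binding protein, rose from 7.0 ± 0.618 CPM in WT by 1.56 ± 0.14, 1.76 ± 0.14 and 1.90 ± 0.14. Zfp264 rose by 1.00 ± 0.13 in E1-KO and by 0.41 ± 0.13 in E2-KO, while D-KO stood at -0.01 ± 0.13. Trophectoderm markers were examined since several imprinted genes act in the placenta. Over 10 genes they summed to 117 to 125 CPM in WT and 114 to 123 CPM in D-KO. Their sum was 197 to 214 CPM in the single deletions. Of 9 tested, Krt8, Krt18, Tead4, Tfap2c and Hand1 were called higher in both single deletions, where 0 were called lower. For D-KO 3 were called higher (Tead4, Tfap2c and Hand1) and 2 lower (Eomes and Gata3). Over all genes, 15.7%, 16.7% and 10.6% were called higher in E1-KO, E2-KO and D-KO, and 18.5%, 18.6% and 12.2% lower. Cdx2, Gata3 and Eomes stood at -0.99, -0.68 and -0.36 for E1-KO and at -1.38, -0.60 and -0.26 for E2-KO, without a call. Germ cell markers (6 genes) summed to 119.9 to 169.5 CPM in WT and 63.5 to 112 CPM in the KO libraries. Dazl, a germ cell RNA-binding protein, carried that fall, with means of 101.1 CPM in WT and 29.8, 22.9 and 19.5 CPM in E1-KO, E2-KO and D-KO, while Prdm14 rose by 1.22, 1.07 and 0.44. The part of either list in the imprinted genes' values was not tested.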

How the data were processed

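RNA-seq counts of 12 libraries were used; the 4C-seq and ChIP-seq samples were not analysed here. Each deposited table holds raw whole-number counts per gene symbol, as the authors made them; HISAT2 2.1.0, HTSeq 0.9.1, DESeq2 1.18.1 and mm10 are named, per the submitters' processing notes. Which annotation was counted, and whether by strand, is not given in the sources used here. Lines that name no gene were left out of library sizes and tests; the no-feature line alone came to 1.11 to 1.20 times the reads on genes. Library totals from 9101547 to 13007735 counts set the precision, and floors of 3 counts cover counting error only.

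Libraries were grouped by the genotype in the labels. Genes kept by filterByExpr (16765) were compared by edgeR 4.0.16 under R 4.3.3 (TMM, quasi-likelihood with robust estimation, all 12 libraries, a mean per genotype, no covariate), in 6 pairwise comparisons, with Benjamini-Hochberg adjustment over all genes and a threshold of 0.05. All adjusted p-values are edgeR's. Values are TMM-normalised CPM, with SDs over 3 libraries and standard errors of log2 fold changes. The fit was tested on simulated counts with known changes. Their spread was taken from the KO libraries alone, so that test did not cover the wider spread of WT. Positions and exon lengths are from GENCODE M21 (GRCm38), promoter windows from RefSeq GRCm38.p6.

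Alternatives were DESeq2 1.42.0, RLE and library-total scaling, no filter, leaving out each library, 6 libraries per comparison, a replicate block, offsets for GC content and length (38 of 38 genes had both), and limma 3.58.1 with library weights. Members and gene lists were chosen with earlier results of these data known. A gene was described by library if called in at least 1 comparison with separated libraries; of the other lists, up to 3 genes with the smallest adjusted p against WT were named, besides copies and hosts. Ndn, Dio3, Cobl, Dazl, Prdm14, the named trophectoderm markers and overlapping transcripts were added after their values were seen.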

Additional observations from a re-analysis of the deposited data

How the results depend on the processing

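Of 63 called values of the imprinted genes, 35 kept direction and threshold in all 22 alternatives; of 1386 recomputed values, 1224 did so, 160 lost the threshold and 2 turned direction. The 2 were Kcnq1ot1 in E2-KO against WT, at 0.00 with offsets for GC content and length and 0.01 with these offsets and the replicate block; the cause was not tested. Counts of calls among the tested genes moved by over 1.5 times as follows. The fit of 6 libraries gave 6 in D-KO against WT (12 as reported), 13 in D-KO against E2-KO (3) and 13 in E2-KO against E1-KO (4). limma with library weights gave 13 and 12 in the latter comparisons. No filter gave 7 in each of them. In D-KO against E2-KO, DESeq2 gave 6, offsets for GC content and length 7, and those with the replicate block 6. Leaving out 1 library gave 7 to 17 calls in D-KO against E1-KO, 2 to 12 in D-KO against E2-KO and 2 to 7 in E2-KO against E1-KO. Leaving out WT replicates 1 and 3 together, chosen after seeing the data, gave 19 in D-KO against WT, 20 in D-KO against E1-KO, 15 in D-KO against E2-KO and 13 in E2-KO against E1-KO; the lone WT library is then assumed to vary like the other groups. For E1-KO and E2-KO against WT, leaving out 1 library gave 13 to 20 and 12 to 20 calls. Same-numbered libraries did not deviate together (correlations from -0.17 to 0.14), beside -0.33 to 0.23 for differently numbered ones. Whether equal numbers share a culture or a preparation is not given and was not tested. The replicate block alone gave 16, 14 and 11 calls against WT and 12, 3 and 4 between KO genotypes. The spread among WT libraries and the few counts of the low genes limit these results.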
